A study of Homo sapiens with 48 samples.

Results

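Interferon-stimulated genes (ISGs) were followed gene by gene in AMO1 cells, a human multiple myeloma line grown from a plasmacytoma, after knockdown of IRE1 or of XBP1. The set held 43 genes of the 58302 in the count table, whose rows were found by gene symbol. These genes were chosen with earlier results of these data known. Interferons bind receptors at the cell surface and act through JAK kinases and STAT transcription factors, among them STAT2, which works with IRF9 in the type I and type III response. The genes they switch on include sensors that detect viral nucleic acid inside the cell (RIG-I, MDA5), enzymes that respond to double-stranded RNA (the OAS family, PKR), and effectors that hold back viruses (IFIT, IFITM and MX proteins). Some of them, such as USP18, restrain the same pathway, and many are expressed at a basal level without added interferon.

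IRE1, encoded by ERN1, is an endoplasmic reticulum stress sensor whose RNase produces the active form of the transcription factor XBP1. Each clone carried shRNAs whose expression was switched on by doxycycline (Dox, 0.2 µg/ml), and every group contained the shRNA cassette. The labels give the genotypes IRE1 sh7,8,9 (shIRE1 Cl.1 and Cl.3) and XBP1 sh4,6,7 (shXBP1 Cl.1 and Cl.18). Cells were taken after 0, 24, 48 or 72 h of Dox, with 3 biological replicates for each clone and time, giving 48 RNA-seq libraries. The 0 h cells were untreated and served as the reference for their own clone. Each line is 1 clone, and no clone with a non-targeting shRNA was analysed here, so within a clone the knockdown cannot be told apart from Dox itself or from making an shRNA.

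Total counts ran from 19177855 to 40767202 per library. ERN1 was at a mean of 152 CPM (counts per 1000000 counts of a library) at 0 h and 103 CPM at 72 h in shIRE1 Cl.1, and at 432 and 125 CPM in shIRE1 Cl.3, so that the drop differed between the clones. XBP1 fell from 167 to 34 CPM in shXBP1 Cl.1 and from 169 to 37.6 CPM in shXBP1 Cl.18. The plasma cell markers were present in every library, and their summed level fell from between 13850 and 15840 CPM to between 8871 and 9615 CPM in shIRE1 Cl.1 by 72 h. It also fell in the other clones, and its part in the results below was not tested. SDC1 and JCHAIN were the most abundant of these markers, with medians over all libraries of 7190 and 3570 CPM. They therefore weigh most in the sum. Of 18 markers of B, T and NK, myeloid, dendritic and stromal cells, 13 never exceeded 1 CPM, among them CD3D and CD14, and CD68 and DCN had no count in any library. The T cell marker CD3E lay between 4.57 and 17.5 CPM and VIM, which many cell types express, between 1260 and 2040 CPM in all libraries. MS4A1 (B cell), FLT3 (dendritic cell) and COL1A1 (stromal cell) reached at most 2.31, 2.18 and 1.28 CPM. The summed level of the 18 was nearly all VIM. In shIRE1 Cl.1 this sum went from between 1385 and 1427 CPM at 0 h to between 1939 and 2011 CPM at 72 h. In Cl.3 it went from between 1272 and 1543 to between 1774 and 1962 CPM, and its part in the results was not tested. The library labelled shXBP1 Cl.18, 72 h, replicate 3 correlated better with the shXBP1 Cl.1 libraries of 72 h (r = 0.994) than with its own group (r = 0.983). The library labelled shIRE1 Cl.3, 24 h, replicate 1 was likewise slightly nearer to shIRE1 Cl.1 at 24 h (r = 0.993) than to its own group (r = 0.991).

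Many ISGs carry an interferon-stimulated response element in front of the gene, where STAT2 and IRF9 bind as part of a complex. The letters GAAANNGAAA, searched on both strands (TTTCNNTTTC on the other), occurred in the RefSeq promoter windows (GRCh38.p14, 250 bases before to 50 after a start) of 26 of the 35 members that had a window, or 74.3%. Among all 27305 genes with a window the share was 4.38%. The letters TTCNNNGAA, the core of the gamma-activated site and a palindrome on both strands, occurred in 9 of 35 members (25.7%) and in 9.38% of all genes. The 5 windows printed here were chosen because their genes carry the main contrasts of the results: DTX3L, whose window overlaps that of the divergent gene PARP9 and which rose strongly, IFIH1 and IFIT5, which rose, and the neighbours SAMD9 and SAMD9L, of which the former fell and the latter rose. Capitals mark GAAANNGAAA on either strand.
DTX3L (chr3:122564088-122564387, plus strand): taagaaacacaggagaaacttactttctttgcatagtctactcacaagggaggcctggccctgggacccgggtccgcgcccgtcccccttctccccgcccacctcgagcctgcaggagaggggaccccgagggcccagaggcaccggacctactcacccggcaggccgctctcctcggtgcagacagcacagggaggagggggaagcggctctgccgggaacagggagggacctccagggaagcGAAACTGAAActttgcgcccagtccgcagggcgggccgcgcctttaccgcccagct
IFIH1 (chr2:162318635-162318934, minus strand): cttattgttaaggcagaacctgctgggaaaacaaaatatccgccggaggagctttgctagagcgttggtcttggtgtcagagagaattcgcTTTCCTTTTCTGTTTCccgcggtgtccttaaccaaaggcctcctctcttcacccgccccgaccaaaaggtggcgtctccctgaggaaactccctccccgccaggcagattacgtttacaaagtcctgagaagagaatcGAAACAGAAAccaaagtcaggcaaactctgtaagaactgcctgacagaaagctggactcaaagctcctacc
IFIT5 (chr10:89414318-89414617, plus strand): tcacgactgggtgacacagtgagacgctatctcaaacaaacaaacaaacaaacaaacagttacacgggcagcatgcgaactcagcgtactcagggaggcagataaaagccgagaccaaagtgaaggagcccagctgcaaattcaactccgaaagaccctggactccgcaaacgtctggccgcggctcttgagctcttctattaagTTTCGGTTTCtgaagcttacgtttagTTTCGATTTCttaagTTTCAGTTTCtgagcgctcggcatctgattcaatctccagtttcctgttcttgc
SAMD9 (chr7:93117930-93118229, minus strand): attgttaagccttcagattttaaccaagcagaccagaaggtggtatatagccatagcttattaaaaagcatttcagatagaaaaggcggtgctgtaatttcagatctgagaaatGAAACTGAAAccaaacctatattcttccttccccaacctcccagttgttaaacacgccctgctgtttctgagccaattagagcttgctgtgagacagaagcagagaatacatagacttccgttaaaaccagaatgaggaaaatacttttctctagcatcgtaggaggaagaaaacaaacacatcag
SAMD9L (chr7:93148336-93148635, minus strand): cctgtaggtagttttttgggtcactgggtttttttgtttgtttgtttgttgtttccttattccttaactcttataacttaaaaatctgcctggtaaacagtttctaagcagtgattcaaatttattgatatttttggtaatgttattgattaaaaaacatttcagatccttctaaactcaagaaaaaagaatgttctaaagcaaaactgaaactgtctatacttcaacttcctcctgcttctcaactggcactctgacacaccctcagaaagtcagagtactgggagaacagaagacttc

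The IFIT5 window held 3 matches within 50 bases before the start, the IFIH1 window 3 matches of which 2 overlap, the DTX3L and SAMD9 windows 1 each, and the SAMD9L window none. The match in the DTX3L window is also the match in the PARP9 window, read on the other strand. No window was at hand for IFIT2, IFITM2, MX2, OAS2, OASL, USP18, DHX58 and TRIM22.

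After IRE1 silencing most of the measured ISGs rose, and they rose by very different amounts. At 72 h of Dox, 23 members were higher and 2 were lower (SAMD9, IFIT3) in both shIRE1 clones, where 20.5% of all 16795 genes tested in both were higher and 21.4% were lower. In shIRE1 Cl.1, 24 of 35 members tested were higher and 4 were lower, against 32.5% and 31.1% of all genes. In shIRE1 Cl.3, 26 of 35 were higher and 5 were lower, against 29.7% and 30.5% of all genes. The median log2 fold change of the members was 0.88 in Cl.1 and 1.02 in Cl.3, and that of all genes was 0.02 in each. Of the tested members, 7 in Cl.1 and 9 in Cl.3 passed the count filter only through their levels under Dox, so that a rise was favoured for them, and 6 and 9 of these were higher at 72 h. Among the members that passed the count filter at 0 h as well, 18 of 28 were higher and 4 lower in Cl.1, and 17 of 26 were higher and 5 lower in Cl.3. The set was chosen with earlier results of these data known, so none of these counts is independent support.

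There were 8 members that had too few counts to be tested in any clone (OAS3, HERC6, IFITM2, IFITM3, CMPK2, IFI27, IFI44L and XAF1). XAF1, a proapoptotic ISG, had 0 counts over the 3 libraries of shIRE1 Cl.3 at 0 h and 20 counts at 72 h, which is at least 5.46-fold higher when 3 counts over the group are taken as the floor.

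**Figure D1:**
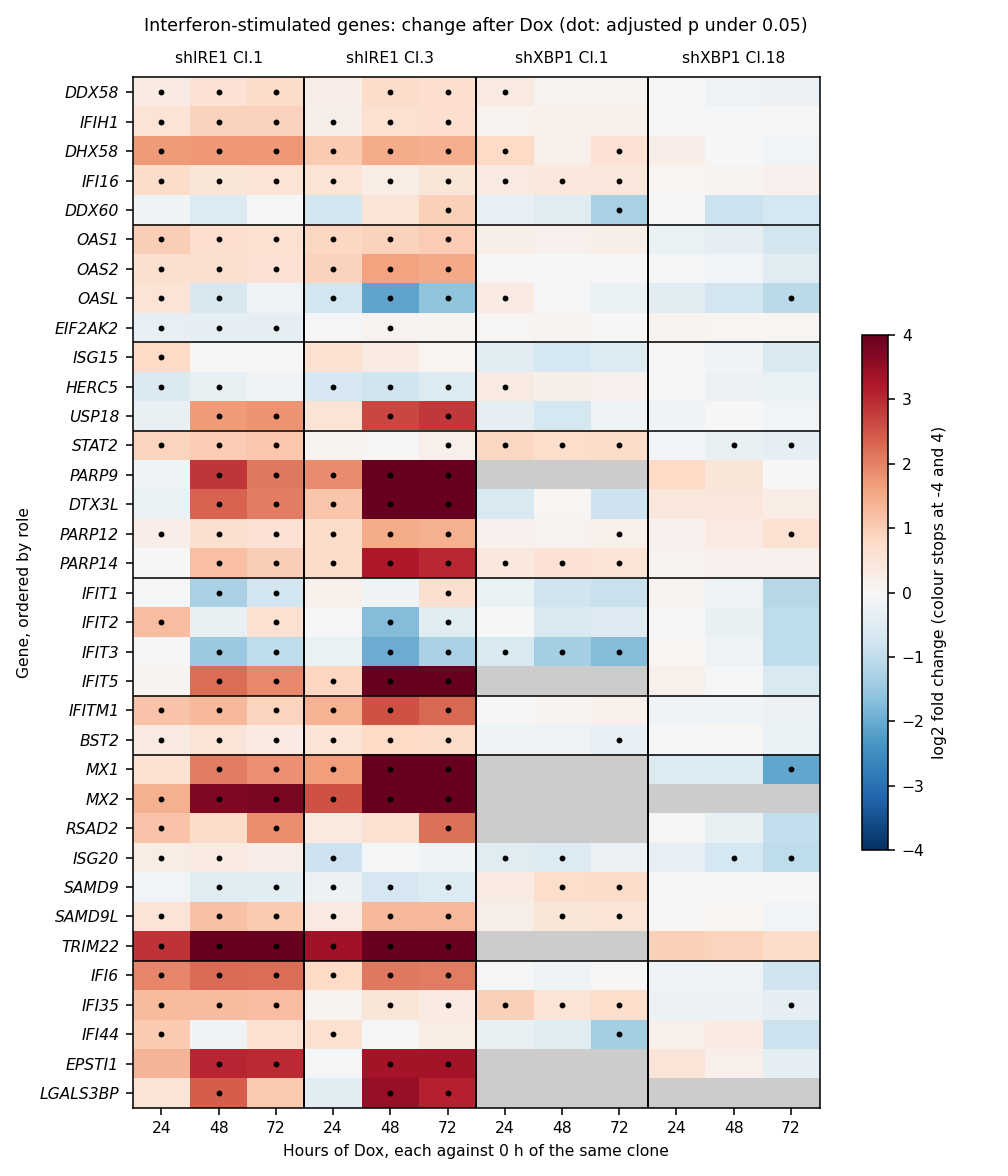
Log2 fold change of the 35 tested interferon-stimulated genes (rows, by role) at 24, 48 and 72 h of Dox against 0 h in each of the 4 clones (columns); a dot marks an adjusted p under 0.05 and grey marks a gene that was not tested in that clone. At 48 and 72 h TRIM22 and MX2 are deep red in both shIRE1 clones, and SAMD9 and IFIT3 are blue there. At these times PARP9 and DTX3L are deep red in shIRE1 Cl.3 and paler in shIRE1 Cl.1. At 24, 48 and 72 h shXBP1 Cl.1 holds 10, 8 and 12 dots, and shXBP1 Cl.18 holds 0, 2 and 6.

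Among the nucleic acid sensors, 4 of 5 were higher in shIRE1 Cl.1 and 5 of 5 in Cl.3 at 72 h. Of all genes 32.5% were higher in Cl.1 and 29.7% in Cl.3. IFIH1 (MDA5, which senses long double-stranded RNA) was at 47.1, 47.1 and 46.9 CPM at 0 h and 89.1, 89.9 and 89.5 CPM at 72 h in Cl.1. In Cl.3 it was at 53.4, 59.2 and 59.4 CPM and 87.6, 89.4 and 104 CPM. The 0 h and 72 h libraries did not overlap in either clone, and the log2 fold changes were 0.92 (SE 0.0451, adjusted p = 1.98e-12) in Cl.1 and 0.67 (SE 0.0639, adjusted p = 3.02e-07) in Cl.3. DHX58 (LGP2, a regulator of RIG-I and MDA5) had the largest change of the sensors in both clones. It rose from 2.0, 2.28 and 2.63 to 8.84, 6.41 and 8.19 CPM in Cl.1, a log2 fold change of 1.75 (SE 0.142, adjusted p = 3.02e-09), and from 4.55, 3.71 and 4.98 to 13.7, 12.6 and 11.4 CPM in Cl.3, a log2 fold change of 1.47 (SE 0.119, adjusted p = 4.67e-08). Most of that rise was present at 24 h, when the libraries stood at 7.03, 7.29 and 8.58 CPM in Cl.1.

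DDX58 (RIG-I, which senses RNA with a 5' triphosphate) was scarce. It stood at 2.64, 2.93 and 3.22 CPM at 0 h and 5.07, 5.55 and 4.04 CPM at 72 h in Cl.1, and at 3.05, 4.14 and 3.21 and 5.21, 4.97 and 6.68 CPM in Cl.3. The groups were separate in both clones and the log2 fold changes were close to each other, at 0.73 (SE 0.125, adjusted p = 4.71e-05) and 0.66 (SE 0.146, adjusted p = 0.00114). DDX58 shares exons with another annotated gene on the same strand, so its counts may be incomplete. IFI16, a DNA sensor, was abundant at all times, with 225, 227 and 215 CPM at 0 h in Cl.1 and 206, 221 and 216 CPM in Cl.3. It reached its highest level at 24 h (385, 368 and 359.7 CPM in Cl.1) and was at 326, 329.9 and 327 CPM at 72 h. The fall from 24 to 48 h passed the test in both clones, and at 72 h the change from 0 h was 0.55 (SE 0.0388, adjusted p = 3.74e-10) in Cl.1 and 0.49 (SE 0.0592, adjusted p = 3.6e-06) in Cl.3. In Cl.3 IFI16 was at 290.0, 306 and 332 CPM at 72 h. DDX60, a helicase that assists RIG-I, was at 0.578, 1.09 and 0.939 CPM at 0 h and 1.17, 1.93 and 2.04 CPM at 72 h in Cl.3 (0.94, SE 0.262, adjusted p = 0.00603). In Cl.1 DDX60 was at 0.942, 0.462 and 0.723 and 0.597, 0.605 and 0.815 CPM and did not pass the test (-0.06, SE 0.304, adjusted p = 0.868). The difference between the clones was 1.02 (SE 0.464, adjusted p = 0.0998), which did not pass.

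The enzymes that respond to double-stranded RNA were split. OAS1 and OAS2, which make the messenger 2-5A, rose in both clones. OAS2 was at 24.7, 27.3 and 26.1 CPM at 0 h and 38.5, 39.3 and 40.1 CPM at 72 h in Cl.1, and at 20.8, 19.1 and 19.8 and 58, 54.4 and 64.7 CPM in Cl.3. Its change was larger in Cl.3 (1.53, SE 0.0736, adjusted p = 1.21e-10) than in Cl.1 (0.59, SE 0.0548, adjusted p = 2.15e-08), and the difference between the clones passed the test (0.95, SE 0.342, adjusted p = 0.033). That call was lost in 7 fits without 1 library, those without 0 h replicate 2 or 3 or 72 h replicate 1 or 2 of Cl.1, or 0 h replicate 2 or 3 or 72 h replicate 3 of Cl.3 (adjusted p from 0.0518 to 0.0649). The SE of the difference comes from the fit of all 48 libraries, so it also takes in the spread of the shXBP1 clones. In shXBP1 Cl.18 at 72 h, OAS2 stood at 93.4, 100.2 and 19.2 CPM. OAS1 rose within 24 h in Cl.1, from 5.09, 6.07 and 5.29 to 11.1, 11.5 and 10.7 CPM, and then eased to 7.76, 8.87 and 8.81 CPM. In Cl.3 OAS1 was at 6.44, 5.58 and 5.7 CPM at 0 h and 12.3, 12.5 and 12.2 CPM at 72 h. At 72 h its log2 fold change was 0.62 (SE 0.0932, adjusted p = 1.13e-05) in Cl.1 and 1.02 (SE 0.0915, adjusted p = 1.42e-07) in Cl.3.

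EIF2AK2 (PKR, the kinase that stops translation on binding double-stranded RNA) did not rise with them at 72 h. In Cl.1 it fell from 116, 112 and 106 to 82.8, 88.1 and 88 CPM, a log2 fold change of -0.37 (SE 0.0585, adjusted p = 1.79e-05). In Cl.3 it was at 79, 86.8 and 82.5 CPM at 0 h and 86, 87.9 and 102 CPM at 72 h (0.11, SE 0.0608, adjusted p = 0.117), and 1 library of 72 h lay within the range of 0 h. OASL, an OAS relative without the enzymatic activity, went down in Cl.3 from 15.8, 14.7 and 13.2 to 5.3, 5.18 and 4.25 CPM (-1.60, SE 0.121, adjusted p = 2.15e-08). In Cl.1 it was at 5.13, 4.5 and 4.04 CPM at 0 h, rose to 5.43, 7.47 and 7.41 CPM at 24 h and was at 3.51, 4.2 and 4.15 CPM at 72 h (-0.21, SE 0.15, adjusted p = 0.24). The 2 clones started from different levels of OASL, Cl.3 being higher at 0 h by a log2 difference of 1.70 (SE 0.162, adjusted p = 3.29e-11).

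Sensors and effectors were then set side by side. Counting both sensor lists, 6 of 9 tested members were higher and 1 lower in Cl.1 at 72 h, and 7 of 9 were higher and 1 lower in Cl.3, with medians of 0.59 and 0.67. All 9 had enough counts at 0 h to be tested. Among the IFIT, membrane and antiviral effectors, MX1, MX2, RSAD2 and TRIM22, and IFIT5 in Cl.3, entered the test only through their levels under Dox, so a count that includes them is no support. Of the effectors that passed the filter at 0 h as well, 5 of 9 were higher and 3 lower in Cl.1, and 4 of 8 were higher and 3 lower in Cl.3, with medians of 0.32 and 0.23. Of all genes 32.5% were higher and 31.1% lower in Cl.1, and 29.7% and 30.5% in Cl.3. The counts of lower effectors were thus near the share of all genes. Sensors ran from -0.37 (EIF2AK2) to 1.75 (DHX58) in Cl.1 and from -1.60 (OASL) to 1.53 (OAS2) in Cl.3. The difference between the lists was not tested.

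**Figure D2:**
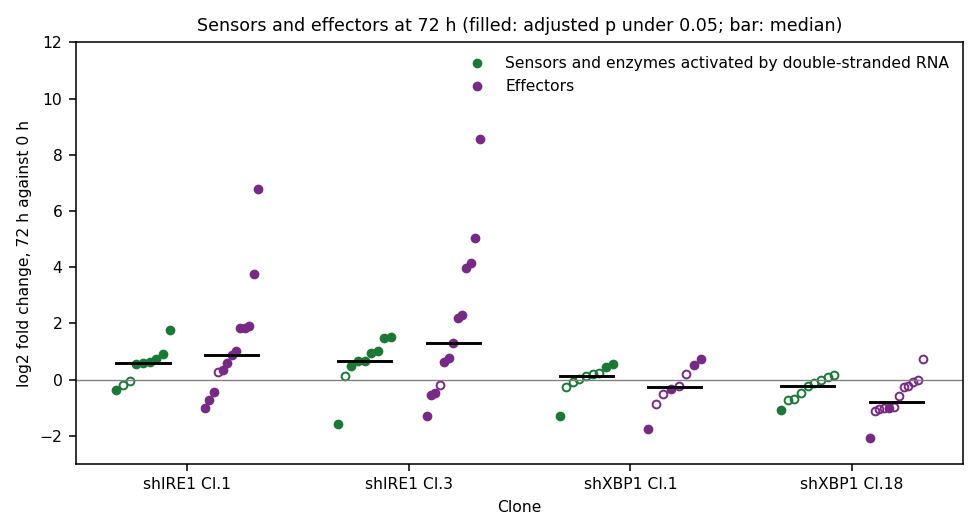
Log2 fold change at 72 h against 0 h of each tested sensor (green) and effector (purple) in the 4 clones, ordered by size within a list; filled points passed an adjusted p of 0.05 and bars are medians of all points shown. In the shIRE1 clones the uppermost effectors are TRIM22 (6.79 and 8.55) and MX2 (3.77 and 5.02), which were tested only through their levels under Dox, and the lowest point in Cl.3 is the sensor list's OASL (-1.60).

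The genes with the largest fold rises were nearly silent before Dox. TRIM22, a ubiquitin ligase that restricts retroviruses, was at 0.113, 0.185 and 0.131 CPM at 0 h, 0.974, 0.966 and 1.45 CPM at 24 h, 17, 21.4 and 22.9 CPM at 48 h and 15.4, 18.6 and 15.7 CPM at 72 h in Cl.1. In Cl.3 the 4 times gave 0.116, 0.0436 and 0.108 CPM, 0.846, 0.889 and 1.22 CPM, 35, 35 and 35.4 CPM and 32.9, 36.6 and 40.5 CPM. Each time up to 48 h was separate from the one before in both clones. The log2 fold change at 72 h was 6.79 (SE 0.225, adjusted p = 8.99e-15) in Cl.1 and 8.55 (SE 0.186, adjusted p = 8.46e-14) in Cl.3. In the fit of all 48 libraries the clones' responses did not differ past the threshold (1.77, SE 0.797, adjusted p = 0.0961), which does not show that they were alike. Every 72 h library of Cl.3 lay above every 72 h library of Cl.1. Over the 24 shXBP1 libraries TRIM22 ranged from 0.0289 to 0.849 CPM. TRIM22 shares exons with OR52P1 and OR56B1 on the same strand, so its counts may be incomplete.

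MX2 and MX1, dynamin-like GTPases that block viral nucleocapsids, were nearly silent at 0 h in both clones. MX2 rose from 0.377, 0.123 and 0.0657 to 2.46, 2.17 and 2.91 CPM in Cl.1 (3.77, SE 0.366, adjusted p = 3.63e-08) and from 0.193, 0.0872 and 0.0722 to 4.41, 4.05 and 3.66 CPM in Cl.3 (5.02, SE 0.305, adjusted p = 1.69e-09). MX1 rose from 0.226, 0.0616 and 0.23 to 0.559, 0.605 and 0.66 CPM in Cl.1 (1.82, SE 0.384, adjusted p = 0.0004) and from 0, 0.174 and 0.144 to 2.1, 1.87 and 2.0 CPM in Cl.3 (4.16, SE 0.397, adjusted p = 2.95e-07), and none of the 72 h values overlapped with 0 h. The Cl.3 response of MX1 was the larger by 2.35 (SE 0.748, adjusted p = 0.0158), a call lost without 0 h replicate 1 or 3 of Cl.1 or 0 h replicate 1 of Cl.3 (adjusted p from 0.0653 to 0.0862). RSAD2 (viperin) also rose in both, by 1.85 and 2.19. LGALS3BP, a secreted galectin ligand, was at 0.154, 0.174 and 0.253 CPM at 0 h and 1.54, 2.09 and 1.69 CPM at 72 h in Cl.3 (3.12, SE 0.316, adjusted p = 5.88e-07). In Cl.1 it reached 0.591, 0.918 and 0.462 CPM at 48 h but was at 0.373, 0.285 and 0.117 CPM at 72 h, where it overlapped with 0 h (1.05, SE 0.608, adjusted p = 0.14).

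**Figure D3:**
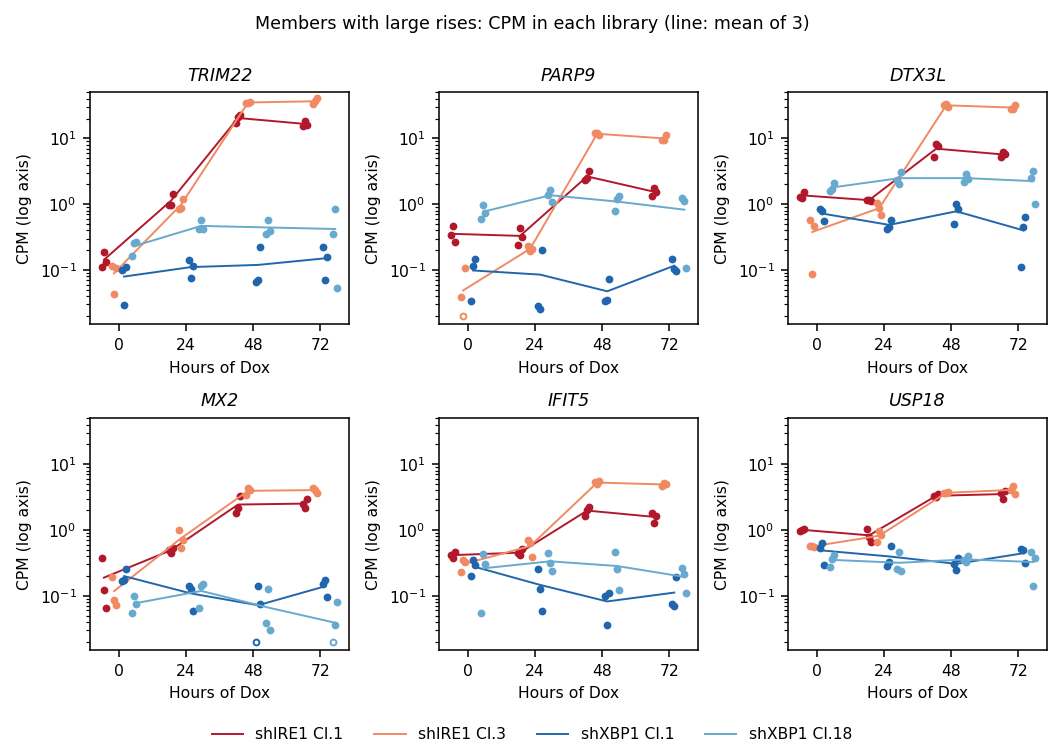
CPM on a log axis of 6 strongly raised members in each library at 0, 24, 48 and 72 h of Dox; points are libraries, lines join the means of 3 replicates, colours are clones, and open points at the bottom stand for libraries with no count. The shIRE1 clones part from the shXBP1 clones at 48 h for PARP9, DTX3L, IFIT5 and USP18, and TRIM22 had already risen at 24 h.

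All 5 members of the signalling and ADP-ribosylation list were higher in both clones at 72 h, where 20.5% of all genes were. Their medians were 1.08 in Cl.1 and 3.03 in Cl.3. However, PARP9 in both clones and DTX3L in Cl.3 were tested only through their levels under Dox. PARP9 and DTX3L form a complex that modifies histones and ubiquitin and promotes interferon-driven transcription, and their genes lie head to head. PARP9 was at 0.339, 0.462 and 0.263 CPM at 0 h, 0.236, 0.439 and 0.316 CPM at 24 h, 2.3, 2.48 and 3.15 CPM at 48 h and 1.34, 1.78 and 1.51 CPM at 72 h in Cl.1. In Cl.3 it went from 0.0386, 0 and 0.108 CPM through 0.231, 0.192 and 0.208 CPM and 12.1, 12.1 and 11.1 CPM to 9.35, 9.41 and 11.2 CPM. DTX3L followed the same course, from 1.28, 1.26 and 1.54 to 5.18, 6.2 and 5.71 CPM in Cl.1 and from 0.578, 0.0872 and 0.469 to 27.9, 27.5 and 32.6 CPM in Cl.3. In Cl.1 neither gene passed the test at 24 h, and both stood clear of 0 h from 48 h on.

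The 72 h log2 fold changes were 2.10 (SE 0.267, adjusted p = 1.38e-06) and 7.43 (SE 0.262, adjusted p = 4.74e-12) for PARP9. For DTX3L they were 2.05 (SE 0.178, adjusted p = 7.44e-09) and 6.18 (SE 0.21, adjusted p = 3.54e-12). The clones differed for both, by 5.35 (SE 0.812, adjusted p = 2.21e-06) for PARP9 and 4.14 (SE 0.448, adjusted p = 1.95e-09) for DTX3L. Cl.3 began lower, with log2 differences at 0 h of -2.66 and -1.77, and ended higher. Exons of PARP9 and DTX3L overlap on opposite strands, and whether strand was used in the counting is not stated, so reads of the overlap may have been shared between them. PARP14, a neighbouring gene on the same chromosome and another ADP-ribosyltransferase, went from 8.18, 7.12 and 6.96 to 13.8, 15.4 and 15 CPM in Cl.1 and from 3.51, 5.28 and 4.87 to 35.9, 36.3 and 41.9 CPM in Cl.3. Its change was likewise larger in Cl.3 (3.03, SE 0.11, adjusted p = 6.63e-12) than in Cl.1 (0.99, SE 0.096, adjusted p = 3.73e-08). PARP12, which reads and adds ADP-ribose, rose by 0.56 and 1.43.

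STAT2, a transcription factor of type I interferon signalling, changed more in Cl.1 than in Cl.3. It rose in Cl.1 from 72.9, 70.5 and 74.3 to 134, 129 and 149 CPM within 24 h and to 155, 155 and 154 CPM by 72 h (1.08, SE 0.0494, adjusted p = 7.25e-13). In Cl.3 it was already at 132, 148 and 136 CPM before Dox and at 164, 158 and 171 CPM at 72 h (0.21, SE 0.0556, adjusted p = 0.00401). The difference in response between the clones was -0.86 (SE 0.0732, adjusted p = 4.28e-12). STAT2 also rose in shXBP1 Cl.1, from 64, 67.9 and 68.7 to 111, 113 and 116 CPM (0.74, SE 0.0504, adjusted p = 1.83e-06), and fell in shXBP1 Cl.18, from 153, 159.5 and 157 to 127, 121 and 113 CPM (-0.38, SE 0.0576, adjusted p = 0.0015). The 2 clones with the lower STAT2 level at 0 h were those with the larger rises.

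The ISG15 conjugation genes did not share a direction. ISG15 itself, the ubiquitin-like modifier, was higher at 24 h in Cl.1 (3.22, 2.87 and 3.53 CPM against 1.47, 1.51 and 2.43 CPM at 0 h) but stood at 2.42, 1.57 and 1.36 CPM at 72 h, with a change of -0.03 (SE 0.222, adjusted p = 0.924). In Cl.3 it was at 2.04, 2.27 and 3.14 CPM at 0 h and 3.33, 3.25 and 1.44 CPM at 72 h (0.08, SE 0.257, adjusted p = 0.805), and the groups overlapped in both clones. USP18, which removes ISG15 and dampens the type I receptor, rose from 0.98, 0.986 and 1.05 to 3.66, 2.92 and 3.96 CPM in Cl.1 (1.79, SE 0.172, adjusted p = 3.09e-08) and from 0.578, 0.567 and 0.541 to 3.98, 4.69 and 3.55 CPM in Cl.3 (2.82, SE 0.185, adjusted p = 4.08e-09). HERC5, the ligase that attaches ISG15, fell in Cl.3 from 12.5, 13.6 and 12.6 to 8.67, 8.96 and 9.42 CPM (-0.55, SE 0.0812, adjusted p = 2.91e-05). In Cl.1 HERC5 dipped to 7.83, 6.47 and 6.75 CPM at 24 h and was at 9.32, 10.0 and 9.24 CPM at 72 h, against 11.3, 9.52 and 10.3 CPM at 0 h (-0.13, SE 0.0951, adjusted p = 0.249).

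The IFIT genes, neighbours on chromosome 10 whose proteins bind foreign or unmodified RNA, were divided as well. IFIT5 rose from 0.415, 0.37 and 0.46 to 1.83, 1.28 and 1.63 CPM in Cl.1 (1.91, SE 0.241, adjusted p = 1.22e-06) and from 0.231, 0.349 and 0.325 to 4.6, 5.18 and 4.96 CPM in Cl.3 (3.98, SE 0.205, adjusted p = 2.62e-10). IFIT3 fell from 5.09, 6.25 and 5.29 to 3.06, 2.31 and 2.91 CPM in Cl.1 (-1.02, SE 0.157, adjusted p = 1.37e-05) and from 8.18, 7.68 and 8.34 to 2.99, 3.31 and 3.87 CPM in Cl.3 (-1.29, SE 0.121, adjusted p = 2.36e-07). The 0 h and 72 h libraries were separate for both genes in both clones. Exons of IFIT2 and IFIT3 overlap with LIPA on the other strand, and IFIT2 shares exons with another annotated gene on the same strand. Their counts may be affected, since it is not stated whether strand was used in the counting. IFIT3 fell in shXBP1 Cl.1 too, from 4.44, 6.74 and 5.97 to 1.41, 2.13 and 1.66 CPM (-1.75, SE 0.193, adjusted p = 5.43e-05), and its response did not differ past the threshold between the shIRE1 and shXBP1 clones (0.23, SE 0.263, adjusted p = 0.476).

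IFIT1 and IFIT2, named here after their values were seen, were called in opposite directions in the 2 shIRE1 clones. IFIT1 went from 0.905, 0.924 and 0.953 to 0.485, 0.605 and 0.582 CPM in Cl.1 (-0.74, SE 0.24, adjusted p = 0.0118) and from 0.771, 0.698 and 0.866 to 1.26, 1.29 and 1.2 CPM in Cl.3 (0.64, SE 0.216, adjusted p = 0.0189). IFIT2 went from 1.77, 1.39 and 1.71 to 2.91, 2.03 and 2.44 CPM in Cl.1 (0.60, SE 0.164, adjusted p = 0.00379) and from 5.63, 5.15 and 4.66 to 3.86, 3.77 and 3.69 CPM in Cl.3 (-0.48, SE 0.132, adjusted p = 0.00538). The IFIT1 calls were lost with DESeq2 (adjusted p = 0.0608 in Cl.1 and 0.0669 in Cl.3), in Cl.1 also without replicate 1 of 72 h (adjusted p = 0.0508), and in Cl.3 without replicate 1 or 2 of 0 h or replicate 2 of 72 h (0.0515 to 0.0707). The IFIT2 calls were lost when all 48 libraries were fitted together (adjusted p = 0.0833 in Cl.1 and 0.0997 in Cl.3). In time both clones had a trough of IFIT2 at 48 h, with 1.34, 1.27 and 1.35 CPM in Cl.1 and 1.45, 1.88 and 1.36 CPM in Cl.3. IFIT2, IFIT3, OASL and IFI44 fell between 24 and 48 h in both clones, while TRIM22, PARP9, DTX3L and IFIT5 rose between the same times. The IFI44 call was lost in 4 of 6 fits without 1 library in Cl.3 (adjusted p from 0.0671 to 0.146) and in Cl.1 without replicate 1 of 24 h (adjusted p = 0.0774). From 48 to 72 h IFIT2 rose again, by 0.90 (SE 0.169, adjusted p = 0.00842) in Cl.1 and 1.26 (SE 0.148, adjusted p = 0.000242) in Cl.3.

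**Figure D4:**
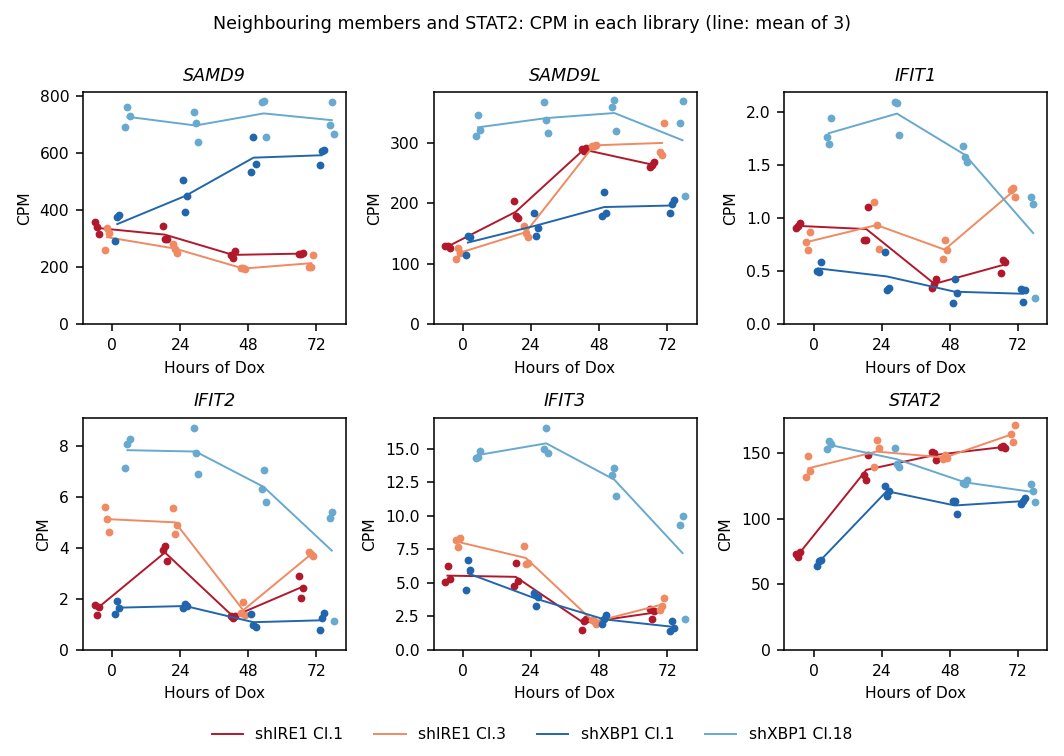
CPM on a linear axis of SAMD9, SAMD9L, IFIT1, IFIT2, IFIT3 and STAT2 in each library at 0, 24, 48 and 72 h of Dox; points are libraries, lines join the means of 3 replicates and colours are clones. SAMD9 falls and SAMD9L rises in both shIRE1 clones, IFIT2 and IFIT3 have a trough at 48 h, and 1 library of shXBP1 Cl.18 at 72 h lies apart from the other two.

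The paralogs SAMD9 and SAMD9L, neighbours on chromosome 7 and inhibitors of poxviruses and of translation, moved in opposite directions. SAMD9L, named after its values were seen, rose from 129, 130.0 and 126 to 260.4, 264 and 267 CPM in Cl.1 (1.03, SE 0.0475, adjusted p = 7.88e-13) and from 108, 125 and 117 to 285, 280.1 and 333 CPM in Cl.3 (1.32, SE 0.0706, adjusted p = 4.16e-10). SAMD9 fell from 357, 339 and 316 to 247, 245 and 249 CPM in Cl.1 (-0.46, SE 0.0582, adjusted p = 1.39e-06) and from 259, 337 and 318 to 199, 199 and 243 CPM in Cl.3 (-0.55, SE 0.0897, adjusted p = 8.1e-05). All 72 h libraries lay on the same side of all 0 h libraries for both genes and clones. In shXBP1 Cl.1 SAMD9 rose instead, from 293, 376 and 382 to 558, 607 and 609 CPM (0.73, SE 0.113, adjusted p = 0.000593). In shXBP1 Cl.18 it did not pass the test, with means of 726 CPM at 0 h and 714 CPM at 72 h (-0.02). The mean shIRE1 response minus the mean shXBP1 response of both clones was -0.86 (SE 0.0998, adjusted p = 1.7e-09). As paralogs the genes may share some reads, and how such reads were counted is not stated.

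Of the membrane restriction factors, IFITM1 and BST2 (tetherin, which holds budding virus at the cell surface) could be tested, and both rose in both clones. The changes were 0.88 and 2.29 for IFITM1 and 0.32 and 0.76 for BST2, and the IFITM1 call in Cl.1 was lost without 0 h replicate 1 or 3 (adjusted p of 0.0577 and 0.0514). Among the other induced genes, IFI6, a mitochondrial and endoplasmic reticulum protein that blocks flaviviruses, rose early. It was at 0.528, 0.585 and 0.657 CPM at 0 h, 2.36, 2.52 and 2.18 CPM at 24 h and 2.72, 2.63 and 3.03 CPM at 72 h in Cl.1 (2.22, SE 0.169, adjusted p = 1.18e-09). In Cl.3 IFI6 was at 0.81, 1.05 and 1.73 CPM at 0 h, 2.77, 1.92 and 1.81 CPM at 24 h and 5.3, 5.83 and 4.57 CPM at 72 h (2.08, SE 0.23, adjusted p = 1.53e-06). IFI6 and IFITM1 each share exons with another annotated gene on the same strand, so their counts may be incomplete. EPSTI1 rose later, from 0.0754, 0.0924 and 0 to 0.336, 0.676 and 0.388 CPM in Cl.1 (2.98, SE 0.572, adjusted p = 0.000162) and from 0.154, 0.174 and 0.108 to 1.08, 1.84 and 1.62 CPM in Cl.3 (3.32, SE 0.318, adjusted p = 3.11e-07).

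The members followed several time courses in the shIRE1 clones. The counts below include members that passed the count filter only through their levels under Dox, such as TRIM22 and MX2. At 24 h, 21 of 35 were higher and 2 lower in Cl.1, where 32.4% of all genes were higher and 29.0% were lower. In Cl.3, 18 were higher and 4 lower, against 22.8% and 23.3% of all genes, and without replicate 1 of that group the counts were 18 and 5. At 48 h, 24 were higher and 6 lower in Cl.1 (33.9% and 31.5% of all genes) and 23 were higher and 5 lower in Cl.3 (31.6% and 31.6%). In both clones together 13 were higher at 24 h (14.6% of all genes), also without that replicate, and 22 at 48 h (21.7%). The step from 24 to 48 h was called higher for 16 members in Cl.1 and 23 in Cl.3 (16.0% and 17.2% of all genes), and lower for 9 and 6 (14.3% and 17.4%). Without replicate 1 of 24 h the Cl.3 counts for this step were 24 and 6. From 48 to 72 h only 1 member changed in Cl.1 (IFIT2) and 3 in Cl.3 (IFIT2, IFIT3 and RSAD2), where 0.373% and 0.512% of all genes were higher and 0.496% and 0.424% were lower. The call of IFIT2 in Cl.1 was lost without replicate 2 of 48 h (adjusted p = 0.0689) or replicate 1 of 72 h (adjusted p = 0.0834). That of IFIT3 in Cl.3 was lost in 5 of the fits that left out 1 library, with adjusted p from 0.0678 to 0.144. DHX58, OAS1, IFI6, IFI35 and STAT2 had reached most of their 72 h level in Cl.1 at 24 h. PARP9, DTX3L, IFIT5, USP18 and PARP14 did not pass the test at 24 h in that clone and rose between 24 and 48 h.

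Which genes carried the rise depended on whether folds or reads were counted. The summed CPM of the 43 members, a share of all reads that also grows with transcript length, went from 1225 ± 24.4 (SD, n = 3) at 0 h to 1610 ± 3.43 (SD, n = 3) at 72 h in shIRE1 Cl.1. In Cl.3 it went from 1200 ± 68.9 to 1785 ± 93.3 (SD, n = 3 each). In Cl.1 the 5 largest rises in CPM were those of SAMD9L, IFI16, STAT2, BST2 and IFIH1, which made up 81.5% of all rises. In Cl.3 SAMD9L, BST2, IFI16, PARP12 and OAS2 made up 67.1%. SAMD9L alone added 135.5 CPM in Cl.1 and 182.4 CPM in Cl.3, whereas TRIM22, first by fold, added 16.4 and 36.6 CPM. SAMD9 fell by 90.0 CPM in Cl.1 and fell by 91.1 CPM in Cl.3. Per kilobase of annotated exons, the mean level in Cl.1 went from 163 to 205 CPM per kb for BST2, from 16 to 33 for SAMD9L and from 0.0114 to 1.32 for TRIM22.

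The same sum rose in shXBP1 Cl.1, from 1149 ± 82.9 to 1559 ± 53.9 CPM (SD, n = 3 each). SAMD9, which fell in the shIRE1 clones, accounted for 240.9 CPM there, or 58.8% of the net change of 410.0 CPM, and IFI16, SAMD9L and STAT2 came next and were also among the 5 largest rises in shIRE1 Cl.1. In shXBP1 Cl.18 the sum was 2067 ± 60.0 CPM at 0 h and 1938 ± 215.5 CPM at 72 h (SD, n = 3 each), a change smaller than the spread at 72 h. Without the 72 h replicate 3 that resembled shXBP1 Cl.1 the mean at 72 h was 2056 CPM (n = 2), a net change of -10.8 CPM in place of -129.6 CPM.

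**Figure D5:**
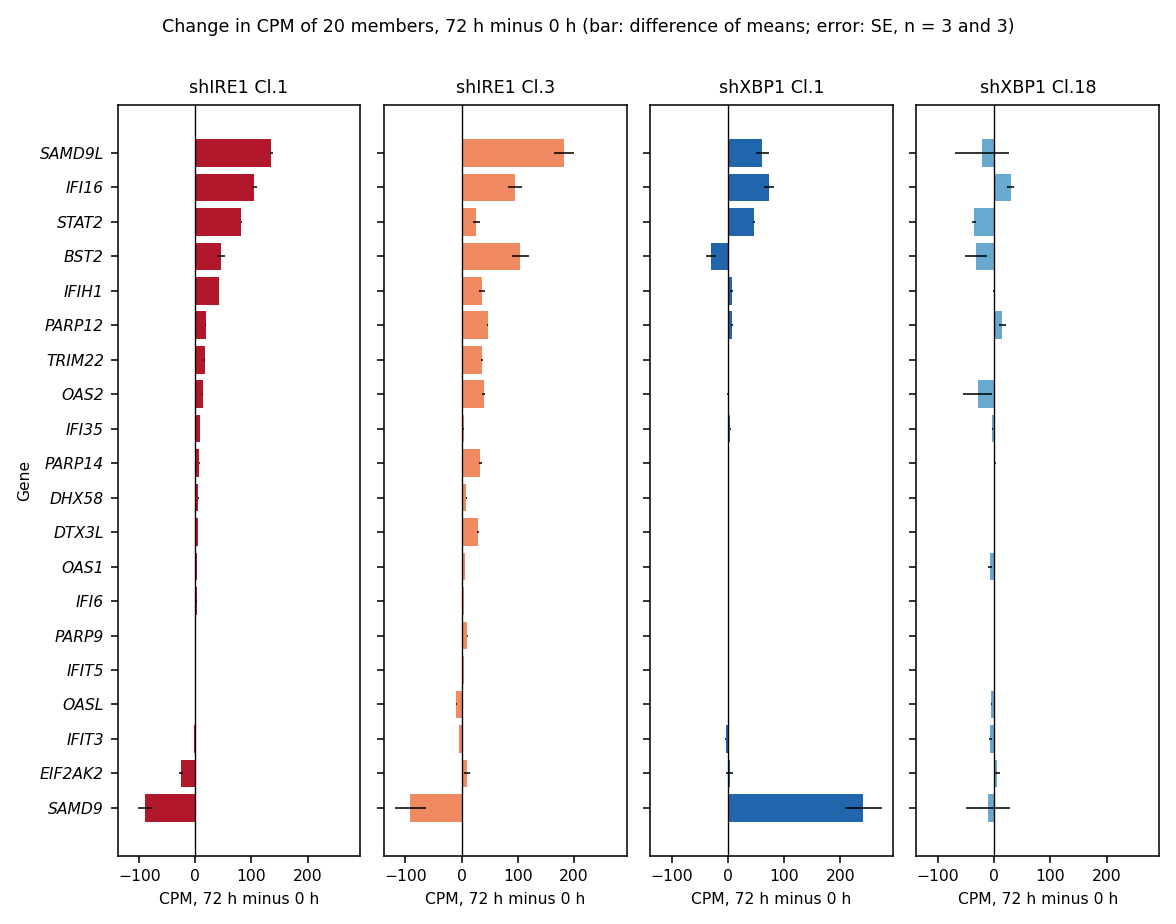
Change in CPM between 0 h and 72 h for the 20 members with the largest absolute change in either shIRE1 clone; bars are differences of group means, error bars are the SE of the difference, and each panel is a clone. SAMD9L is the longest positive bar in both shIRE1 clones (135.5 and 182.4 CPM), SAMD9 points down there, and in shXBP1 Cl.1 SAMD9 is the longest positive bar (240.9 CPM).

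After XBP1 knockdown fewer members passed the test. In shXBP1 Cl.1, 27 members could be tested, and at 24, 48 and 72 h 8, 6 and 8 of them were higher, against 13.9%, 16.6% and 16.8% of all genes. Lower members numbered 2, 2 and 4, against 12.8%, 15.5% and 16.8%. At 24 h 10 members were called in all, and 5 without replicate 3 of that time. IFI16 (0.45, SE 0.0748, adjusted p = 0.000894), PARP14 (0.55, SE 0.0851, adjusted p = 0.00055), SAMD9L (0.51, SE 0.106, adjusted p = 0.00348) and IFI35 (0.70, SE 0.13, adjusted p = 0.00193) rose with STAT2 and SAMD9 at 72 h. IFI44 (-1.38, SE 0.238, adjusted p = 0.0012) and DDX60 (-1.31, SE 0.435, adjusted p = 0.036) fell with IFIT3. The call of DDX60 was lost without any 1 of 5 libraries, all but 0 h replicate 3 (adjusted p from 0.054 to 0.118). DHX58 (0.57) and PARP12 (0.21) were also higher at 72 h, and BST2 (-0.33) was lower. These calls were lost in 2, 3 and 4 of 6 fits without 1 library, in that order. DHX58 was already higher at 24 h (0.79). PARP12 was the 1 member called higher in both shXBP1 clones at 72 h. PARP9, IFIT5, MX1, MX2, RSAD2, TRIM22, EPSTI1 and LGALS3BP were too low to test in that clone.

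In shXBP1 Cl.18, 33 members could be tested. None was higher or lower at 24 h (0.291% and 1.30% of all genes), 2 were lower at 48 h (STAT2 and ISG20, with 2.28% of all genes higher and 3.50% lower), and 1 was higher (PARP12, 0.62 (SE 0.127, adjusted p = 0.0101)) and 5 were lower at 72 h (4.41% and 5.55% of all genes). The 5 were OASL, STAT2, MX1 (-2.09, SE 0.436, adjusted p = 0.0116), ISG20 (-1.02, SE 0.17, adjusted p = 0.0029) and IFI35. Without the 72 h replicate 3 that resembled shXBP1 Cl.1, 1 was higher and 7 were lower at 72 h (3.09% and 4.48% of all genes), and IFIT2, IFIT3 and OAS1 joined the lower ones while IFI35 was no longer among them. The log2 fold changes were then 0.40 for PARP12, -1.89 for MX1, -0.86 for ISG20 and -0.33 for STAT2. Without it 1 member was higher and 5 were lower at 48 h (5.78% and 7.16% of all genes). At 24 h 1 was lower (OASL), where 1.46% of all genes were higher and 3.33% lower. Both members called at 48 h were lost when replicate 2 of 0 h was left out, and 11 members were called at 72 h when replicate 1 of that time was left out. The share of all genes in these 2 fits was not computed.

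The 2 shXBP1 clones differed before any Dox. At 0 h 26 of 35 members were higher in Cl.18 than in Cl.1 and 1 was lower (PARP12), with a median of 1.24 on the log2 scale, where 26.8% of all genes were higher and 24.5% lower. The largest of these differences were those of MX1 (3.28, SE 0.521, adjusted p = 1.48e-06), RSAD2 (3.07, SE 0.417, adjusted p = 7.52e-08), PARP9 (2.97, SE 0.59, adjusted p = 5.16e-05) and OAS2 (2.43, SE 0.247, adjusted p = 1.21e-10). In Cl.1 at 0 h MX1, RSAD2 and PARP9 reached at most 0.134, 0.22 and 0.146 CPM. They were near the floor there, so the size of their differences is uncertain. OAS2 was at 17.4, 20.8 and 17.9 CPM in Cl.1 and 98.6, 103 and 98.6 CPM in Cl.18. Between the shIRE1 clones 10 members were higher in Cl.3 at 0 h and 7 were lower, against 21.4% and 19.2% of all genes. These differences stood before the shRNAs were switched on, and their part in the responses was not tested.

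The responses of the shIRE1 clones were then compared with those of the shXBP1 clones, each response being a change from its own 0 h. At 24 h the response was greater after IRE1 silencing for 16 of 35 members and smaller for 3, against 19.1% and 19.7% of all genes, and without replicate 1 of shIRE1 Cl.3 at 24 h the counts were 15 and 3. At 48 h it was greater for 23 and smaller for 5 (28.9% and 28.0%), and at 72 h it was greater for 29 and smaller for 2 (27.9% and 27.4%). The largest differences at 72 h were those of TRIM22 (6.86, SE 0.806, adjusted p = 1.98e-09), MX2 (5.09, SE 0.728, adjusted p = 1.48e-07), PARP9 (4.67, SE 0.735, adjusted p = 9.57e-07) and DTX3L (4.40, SE 0.345, adjusted p = 4.63e-14). In the fits by clone, TRIM22, MX2 and PARP9 in both shIRE1 clones, and DTX3L in Cl.3, passed the count filter only through their levels under Dox. The 72 h counts include them, and no count without them was made. The 2 smaller responses were those of SAMD9 and HERC5 (-0.30, SE 0.0989, adjusted p = 0.0105). For OASL, EIF2AK2, ISG15 and IFIT3 the difference did not pass the test. Without the 72 h replicate 3 of shXBP1 Cl.18, 29 were greater and 3 smaller, OASL being added, and the differences were 6.57 for TRIM22, 5.66 for MX2, 4.38 for PARP9 and 4.21 for DTX3L. With shIRE1 Cl.1 set against shXBP1 Cl.1 alone 18 members were called at 72 h in place of 31, and the share of all genes there was not computed.

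The 2 shIRE1 clones also differed from each other. The change at 72 h was greater in Cl.3 than in Cl.1 for 13 members and smaller for 5, against 12% and 15.5% of all genes. At 24 h the counts were 2 and 8 (12.7% and 15.5%), a share near that of all genes, and 3 and 8 without replicate 1 of Cl.3 at 24 h. At 48 h they were 10 and 6 (13.6% and 17.3%). Beside PARP9, DTX3L, PARP14, MX1 and OAS2 the greater responses at 72 h included IFIT5 (2.07, SE 0.455, adjusted p = 0.000508), LGALS3BP (2.08, SE 0.765, adjusted p = 0.0387) and USP18 (1.03, SE 0.31, adjusted p = 0.0102). Of these, PARP9, MX1 and LGALS3BP in both clones, and DTX3L and IFIT5 in Cl.3, passed the count filter only through their levels under Dox. The smaller ones were those of OASL, IFIT2, IFI35, STAT2 and HERC5. Leaving out 1 library at a time ended the call of LGALS3BP in 6 fits (adjusted p from 0.0529 to 0.238), of IFIT2 in 9 (0.0521 to 0.104) and of HERC5 in 4 (0.058 to 0.0822). ERN1 mRNA fell by 0.58 on the log2 scale in Cl.1 and by 1.82 in Cl.3, and its part in these differences was not tested.

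The promoter matches were set beside the calls. GAAANNGAAA was found for 12 of the 18 members with a window that were higher in both shIRE1 clones at 72 h. It was found for 10 of the 10 tested members with a window that were not, among them SAMD9, IFIT3, HERC5 and ISG15. The 6 raised members without a match were DDX58, IFI16, OAS1, STAT2, SAMD9L and IFI35. A match says only that the letters are in the window.

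The rest of the interferon pathway was read from a list of 47 genes. In shIRE1 Cl.1 at 72 h, 21 of 36 tested were higher and 12 lower, and in Cl.3 21 of 37 were higher and 11 lower. Of all genes 32.5% were higher and 31.1% lower in Cl.1 and 29.7% and 30.5% in Cl.3, so the lower counts were near the share of all genes. Of 9 interferon genes, IFNG was the only one with enough counts to test. It was at 0.641, 0.585 and 0.558 CPM at 0 h, 4.2, 4.94 and 5.54 CPM at 48 h and 3.92, 5.31 and 4.42 CPM at 72 h in Cl.1 (2.93, SE 0.188, adjusted p = 9.94e-11). In Cl.3 IFNG was at 0.54, 0.567 and 0.397 CPM at 0 h, 8.5, 8.74 and 8.33 CPM at 48 h and 7.0, 8.13 and 9.1 CPM at 72 h (3.97, SE 0.203, adjusted p = 2.43e-10). The 72 h libraries lay far above those of 0 h in both clones. In shXBP1 Cl.18 its change was 0.19 (SE 0.454, adjusted p = 0.824), and the difference between the shIRE1 and shXBP1 responses was 3.40 (SE 0.40, adjusted p = 2.09e-09). IFNB1, IFNL1 and IFNK had 7, 9 and 1 counts in all 48 libraries together, and IFNA1, IFNA2, IFNE, IFNL2 and IFNL3 had 0, so that a change in these transcripts was not detectable at this depth.

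At 72 h IRF8 (log2 fold changes of 3.22 in Cl.1 and 5.79 in Cl.3), IRF1 (1.46 and 1.68) and IRF7 (0.84 and 1.16), which are interferon regulatory factors, rose in both clones. The IRF7 call in Cl.1 was lost without 0 h replicate 1 or 2 or 72 h replicate 1 (adjusted p from 0.0509 to 0.058). TLR3, the endosomal sensor of double-stranded RNA, rose by 2.55 and 5.02, and the feedback inhibitor SOCS1 rose by 3.38 and 2.91. The genes of this list were not checked for passing the count filter only through their levels under Dox. IRF8, TLR3 and SOCS1 were as low as 0, 0.131 and 0.0377 CPM in single libraries, so a rise may have been favoured for them. The DNA sensor CGAS had log2 fold changes of -0.40 (SE 0.0557, adjusted p = 3.66e-06) in Cl.1 and -1.09 (SE 0.0894, adjusted p = 5.46e-08) in Cl.3. The receptor chain IFNAR1 was lower in both clones as well, with -0.33 (SE 0.0461, adjusted p = 4.47e-06) and -0.33 (SE 0.0497, adjusted p = 4.19e-05). IRF9 had 140 counts over all 48 libraries and was not tested.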

How the data were processed

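RNA-seq was done on AMO1 clones with Dox-inducible shRNAs against IRE1 or XBP1, in 48 libraries (4 clones, 4 times, 3 replicates). Groups, times and replicates came from the sample labels. The 43 genes and the gene lists used here were chosen with earlier results of these data known. The mRNA libraries came from a stranded kit, and reads were single ends of 50 bases. The authors deposited raw counts per gene for 58302 genes, and the submitters' processing notes name GSNAP, R 4.1.3, edgeR 3.32.1 and limma 3.46.0 with the builds GRCh37 and hg19. The study's methods name GRCh38 for a related experiment, so no gene coordinates are given except those of RefSeq promoter windows (GRCh38.p14). The sources do not say whether the counting used strand. The authors also deposited log2 CPM values with TMM scaling for 18401 genes. Those values differed by at most 4.97e-14 from log2 CPM recomputed with edgeR (prior count 2).

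CPM was computed from the counts with TMM library sizes. Tests used edgeR 4.0.16 in R 4.3.3 (quasi-likelihood F test, filterByExpr with a minimum count of 10 and a minimum total of 15), with Benjamini-Hochberg adjustment over all genes tested and a threshold of 0.05. Each clone's 12 libraries shared 1 fit, and all 48 were fitted together for differences between clones or knockdowns. On simulated counts the fit recovered 97 of 100 genes changed 2-fold and 100 of 100 changed 4-fold in shIRE1 Cl.1 at 72 h (16815 genes), and 5.74% of its calls were false. The 200 changed genes all had a mean above 1 CPM, so these rates do not cover members that were nearly silent at 0 h. In the data far more genes were called in this comparison, 5576 higher and 5336 lower. Alternatives were DESeq2 1.42.0, limma 3.58.1 on the deposited log2 table, RLE scaling, no filter, a replicate block, 1 fit of all libraries and leaving out each replicate. Depth ran from 19177855 to 40767202 counts, so that 1 count was at most 0.0551 CPM with TMM library sizes. No pair of replicates was alike within sampling noise.

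Values of single libraries, at the times described, are given for the 10 members with the largest and the 5 with the lowest mean change at 72 h over both shIRE1 clones, the sensors, STAT2, ISG15 and USP18. Other members named with all values were added after they were seen (IFIT1, IFIT2, SAMD9L and PARP14). Some genes of the pathway are not reported here.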

Additional observations from a re-analysis of the deposited data

Results flagged for a closer look

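The response of the members differed between knockdowns by a test of the difference itself, for 19 members at 24 h, 28 at 48 h and 31 at 72 h. Of all genes 19.1% were higher and 19.7% lower there at 24 h. The shares were 28.9% and 28.0% at 48 h, and 27.9% and 27.4% at 72 h. The response also differed between the 2 shIRE1 clones, for 10 members at 24 h, 16 at 48 h and 18 at 72 h. Of all genes 12.7% were higher and 15.5% lower in that comparison at 24 h, so the 24 h count was near the share of all genes. The shares were 13.6% and 17.3% at 48 h, and 12% and 15.5% at 72 h. In both comparisons the 72 h counts include members that passed the count filter in a shIRE1 clone only through their levels under Dox. In 5 cases a member was called in opposite directions in the 2 shIRE1 clones and the difference passed the test. At 24 h these were ISG20 (Cl.3 minus Cl.1, -1.13 on the log2 scale) and OASL (-1.30), and at 48 h EIF2AK2 (0.51). At 72 h they were IFIT2 (-1.07) and IFIT1 (1.39). The opposite directions of ISG20 and EIF2AK2 rest on calls that were lost when 1 library was left out: that of ISG20 in Cl.1 in 4 of 6 fits (adjusted p from 0.0889 to 0.232) and that of EIF2AK2 in Cl.3 in 5 of 7 (0.0614 to 0.188). The IFIT1 calls were lost with DESeq2, and the IFIT2 calls in the fit of all libraries.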

How the results depend on the processing

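No called direction turned under any alternative run. Counts of members called stayed within 1.5 times of the edgeR count in 24 of 24 comparisons with RLE scaling, DESeq2 and limma on the deposited log2 table, in 21 of 24 without the count filter, in 13 of 16 when all 48 libraries were fitted together, and in 211 of 225 fits that left out 1 library. In shIRE1 Cl.1, 1 member changed from 48 to 72 h, 4 did so without the count filter, 0 in the fit of all libraries, and 0 to 3 when 1 library was left out. In shXBP1 Cl.18 at 48 h 2 members were called, 4 without the filter, 4 in the fit of all libraries and 0 to 6 with 1 library left out. At 72 h in that clone 6 were called, 15 without the filter, 14 in the fit of all libraries and 4 to 11 with 1 library left out. At 24 h its count was 0 by edgeR and 0 to 1 with 1 library left out, and in shXBP1 Cl.1 at 24 h the count was 10 and went from 5 to 11. The difference between knockdowns at 72 h was called for 31 members and for 18 with the Cl.1 pair alone. The cause of these shifts was not tested.

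Replicate numbers did not pair the libraries. Over 36 pairs of groups the correlation of same-numbered deviations ran from -0.409 to 0.246 and exceeded 0.1 in 4. With the replicate number as a block the count in shXBP1 Cl.18 at 48 h was 1 in place of 2, and the other 23 counts stayed within 1.5 times. For single genes the block ended 17 of the calls and made 1 new one among 1014 values. A fit of the 24 shIRE1 libraries alone, chosen after seeing the data, left 116 of 132 single-gene differences between the clones on the same side of the threshold and moved 16 past it. Among the single-gene values 263 of 9642 lost their call and 91 gained one when 1 library was left out. Counts of shallow members limit the test, since 8 of the 43 members could not be tested in any clone.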

Other observations

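A further list of 38 ISGs outside the 43 was read in the same fits. In shIRE1 Cl.1 at 72 h 16 of 30 tested were higher and 4 lower, in shIRE1 Cl.3 25 of 31 were higher and 2 lower, in shXBP1 Cl.1 9 of 29 were higher and 2 lower, and in shXBP1 Cl.18 3 of 30 were higher and none lower. The shares of all genes called higher and lower were 32.5% and 31.1%, 29.7% and 30.5%, 16.8% and 16.8%, and 4.41% and 5.55% in these clones in turn. GBP4, a guanylate-binding GTPase induced mostly by interferon gamma, was at 0.641, 0.555 and 0.493 CPM at 0 h and 3.81, 3.35 and 3.3 CPM at 72 h in shIRE1 Cl.1 (2.62, SE 0.189, adjusted p = 5.42e-10), and at 0.193, 0.131 and 0.0361 and 12.9, 13.7 and 16.4 CPM in Cl.3 (6.84, SE 0.271, adjusted p = 1.57e-11). At 0 h GBP4 in Cl.3 was too low for the count filter, so it was tested there only through its levels under Dox and a rise was favoured. The other genes of this list were not checked for that. APOL1, an apolipoprotein that lyses trypanosomes, changed by 1.96 (SE 0.124, adjusted p = 8.2e-11) and 2.32 (SE 0.0874, adjusted p = 9.42e-12). UBA7 (1.89 and 2.03) and UBE2L6 (0.86 and 1.24), the E1 and E2 enzymes that load ISG15, were higher in both clones. ZBP1, a sensor of Z-form nucleic acid, was higher in both as well, by 1.45 (SE 0.0777, adjusted p = 7.77e-12) and 0.85 (SE 0.065, adjusted p = 2.24e-08). It was also higher in shXBP1 Cl.1 (0.79, SE 0.109, adjusted p = 0.000254).
RNASEH2A, a subunit of the enzyme that removes RNA from RNA-DNA hybrids, had log2 fold changes of -1.21 in shIRE1 Cl.1 and -1.33 in Cl.3 at 72 h.
IRF4, a factor that plasma cells depend on, went from 1342, 1285 and 1275 CPM at 0 h to 604, 609.9 and 604 CPM at 72 h in shIRE1 Cl.1 and from 1411, 1434 and 1367 to 328, 320.5 and 360.5 CPM in Cl.3, and its change was 0.16 (SE 0.045, adjusted p = 0.0158) in shXBP1 Cl.1 and 0.01 (SE 0.0505, adjusted p = 0.935) in shXBP1 Cl.18.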
